A study of Homo sapiens with 16 samples.

Results

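The 10 genes described here encode transcription factors and 1 co-activator of the mesenchymal state of glioblastoma, and were taken by symbol from 2 expression tables. All 10 were present in each table (17318 genes in the first, 18168 in the second), each with 1 row. They are CEBPB, CEBPD, STAT3, FOSL2, RUNX1, BHLHE40, SNAI2, TWIST1, ZEB1 and WWTR1. The data are RNA sequencing of 16 brain tumours of nude mice, formed by implanted U87 cells, a long-established human glioblastoma line, here with a luciferase reporter. All mice received exosomes of the source abbreviated MSC, and the tumours were taken at euthanasia. The exosomes held human anti-Myc siRNA#1 (Myc1, n = 3) or scramble-siRNA#1 (Scr1, n = 4) in experiment 1, and human anti-Myc siRNA#2 (Myc2, n = 5) or scramble-siRNA#2 (Scr2, n = 4) in experiment 2. The genotype of all is given as WT. Dosing in experiment 1 started on day 28 after implantation, every other day, with 1000000000 exosomes in 100 µl into the retro-orbital sinus. The sources used here give neither the schedule of experiment 2 nor the age of the mice. U87 is a single line, nude mice lack mature T cells, and the siRNAs were directed at the human gene.

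Glioblastoma cells move between a proneural state, close to neural progenitors, and a mesenchymal state, marked by matrix, inflammatory and wound-response genes. C/EBP beta (CEBPB) and STAT3 are the best known master regulators of the mesenchymal state, and CEBPD, FOSL2, RUNX1 and BHLHE40 were placed beside them in regulatory network studies of the tumour. SNAI2, TWIST1 and ZEB1 are repressors and activators best known from epithelial-mesenchymal transition, and WWTR1 encodes TAZ, the Hippo pathway co-activator that binds TEAD factors. STAT3 and TAZ are controlled largely by phosphorylation, so their mRNA is one part of their regulation.

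The values are log2 CPM, read counts scaled to a common library size, quantile-normalised by the authors within each table, so levels were compared within an experiment. Library sizes, estimated from the spacing of the lowest values, were 15.2 to 23.8 M reads in experiment 1 apart from Scr1 replicate 3 (3.35 M), and 15.2 to 29.5 M in experiment 2 apart from Scr2 replicate 4 (10.5 M). Scr2 replicates 1 and 4 stood apart from the other 7 libraries on the first principal component (43.8% of the variance, -63.4 and -94.4 against 2.74 to 47.6). In experiment 1 (31.3% of the variance) Scr1 replicate 4 was lowest at -61.5, and the others were spread widely, from -29.5 to 44.7. MYC, the target of the siRNAs, measured 5.25, 4.73 and 3.84 log2 CPM in Myc1 and 4.41, 4.92, 5.66 and 6.75 in Scr1. It measured 5.79, 5.85, 5.56, 6.17 and 5.40 in Myc2 and 5.33, 5.14, 5.56 and 4.70 in Scr2. The groups overlapped in both experiments, with a difference of -0.83 ± 0.54 (log2, limma SE) for siRNA 1 and 0.57 ± 0.21 for siRNA 2, so the libraries labelled Myc2 held more MYC mRNA than their controls on average, against their label. Of the 8 listed markers of U87 cells, vimentin was at 3682 to 6074 CPM over all groups. The markers were not all high: CHI3L1 was at 4.76 to 13.5 CPM in Scr2 and 15.8 to 118 in Myc2. Of the human genes that mark brain and immune cells, MBP, PTPRC, ITGAM and RBFOX3 were at or below 1.27 CPM where listed, and GFAP was at 1.26 to 3.11 CPM. Other genes of the same lists were not low: CD68 was at 156 to 383 CPM, CSF1R at 6.56 to 32.8, CNP at 105 to 196 and SNAP25 at 2.25 to 16.3. The host is mouse, the rows are human genes only, and the handling of mouse reads is not given. These levels therefore cannot show how much host tissue a tumour held.

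The promoters of 4 genes whose difference in experiment 2 had an unadjusted limma p under 0.05 are shown because these members stood together in that comparison. Each run is the 250 bases before the RefSeq transcription start, on the gene's own strand, from RefSeq on GRCh38.p14; the table held 7 of the 10 members by symbol, all but CEBPD, SNAI2 and TWIST1. The windows lie at chr20:50190580-50190829 (+) for CEBPB, chr17:42388443-42388692 (-) for STAT3, chr2:28392608-28392857 (+) for FOSL2 and chr3:4979187-4979436 (+) for BHLHE40. In GENCODE v29 the FOSL2 gene starts at 28392448 and BHLHE40 at 4979116, so these 2 windows lie inside the annotated gene. Those of CEBPB and STAT3 lie partly inside theirs. Capitals mark any match, on either strand, to the E-box CACGTG, the hypoxia element core ACGTG, the AP-1 site TGANTCA, the C/EBP site TTGCNNAA, the STAT site TTCNNNGAA, the TEAD site GGAATG or the cAMP element core TGACG.
CEBPB: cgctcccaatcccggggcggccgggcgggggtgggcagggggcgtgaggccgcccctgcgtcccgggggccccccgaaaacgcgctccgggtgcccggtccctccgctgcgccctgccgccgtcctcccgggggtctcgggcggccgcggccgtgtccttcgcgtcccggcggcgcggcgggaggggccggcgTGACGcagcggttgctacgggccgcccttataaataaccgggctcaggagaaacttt
STAT3: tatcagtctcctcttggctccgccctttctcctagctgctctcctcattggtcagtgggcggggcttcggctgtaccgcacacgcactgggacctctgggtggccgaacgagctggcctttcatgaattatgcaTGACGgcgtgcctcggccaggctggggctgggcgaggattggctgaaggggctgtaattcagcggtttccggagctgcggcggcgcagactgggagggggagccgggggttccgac
FOSL2: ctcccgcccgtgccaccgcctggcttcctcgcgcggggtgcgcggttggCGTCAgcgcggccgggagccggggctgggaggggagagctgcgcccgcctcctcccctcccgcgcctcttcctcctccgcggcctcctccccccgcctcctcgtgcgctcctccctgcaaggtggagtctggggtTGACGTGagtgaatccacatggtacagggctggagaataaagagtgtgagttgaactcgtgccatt
BHLHE40: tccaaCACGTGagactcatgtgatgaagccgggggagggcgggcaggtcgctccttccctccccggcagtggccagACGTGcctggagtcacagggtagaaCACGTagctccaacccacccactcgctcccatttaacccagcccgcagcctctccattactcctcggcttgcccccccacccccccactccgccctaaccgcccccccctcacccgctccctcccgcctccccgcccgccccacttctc

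These windows shared few letters of this kind. CEBPB held 1 match, TGACG at base -57 counted back from the start, and STAT3 held 1, TGACG at -116. FOSL2 held TGACG at -66 overlapping ACGTG at -64, and a reverse match, CGTCA, at -201. BHLHE40, itself a repressor that binds E-boxes and is induced by low oxygen, held CACGTG at -245, which contains 2 of its 4 ACGTG matches, and further ones at -174 and -149. Of 35116 RefSeq promoter windows of the same length, 6.3% held CACGTG, 18.5% ACGTG and 21.2% TGACG. None of the 4 windows held the AP-1, C/EBP, STAT or TEAD letters, which were in 6.6%, 9.1%, 6.6% and 11.9% of all windows. A match is a description of the letters only.

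All 10 members had a higher mean in Myc2 than in Scr2, and 7 of 10 had a higher mean in Myc1 than in Scr1. No member passed limma's adjusted threshold in either comparison, so each value below is a difference between group means and not a called change. In experiment 2, 0 of 14208 genes tested were called (0%) and 13.4% had an unadjusted limma p under 0.05 (7% higher and 6.36% lower); 5 of the 10 members, CEBPB, STAT3, FOSL2, BHLHE40 and SNAI2, were among these, all higher. The groups did not overlap for 3 members, CEBPB, STAT3 and SNAI2, while 3.01% of all genes tested had groups that did not overlap, 1.4% in the higher direction. The median difference of the members was 0.74 (log2), and that of all genes tested was -0.02, with 48.2% of genes above 0. In experiment 1, 0 of 13933 genes were called (0%) and 3.48% had an unadjusted limma p under 0.05 (1.96% higher and 1.52% lower). TWIST1 was the 1 member among these, and it was higher. No member had groups that did not overlap, which 4.21% of all genes tested had, 1.94% in the higher direction. There the median of the members was 0.17 and that of all genes -0.0028, with 49.5% above 0. Each tumour came from its own mouse, so p-values measure the spread between mice of an experiment. The tissue is bulk tumour, so a different share of cells expressing a gene and a different amount of its RNA per cell cannot be told apart.

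**Figure D1:**
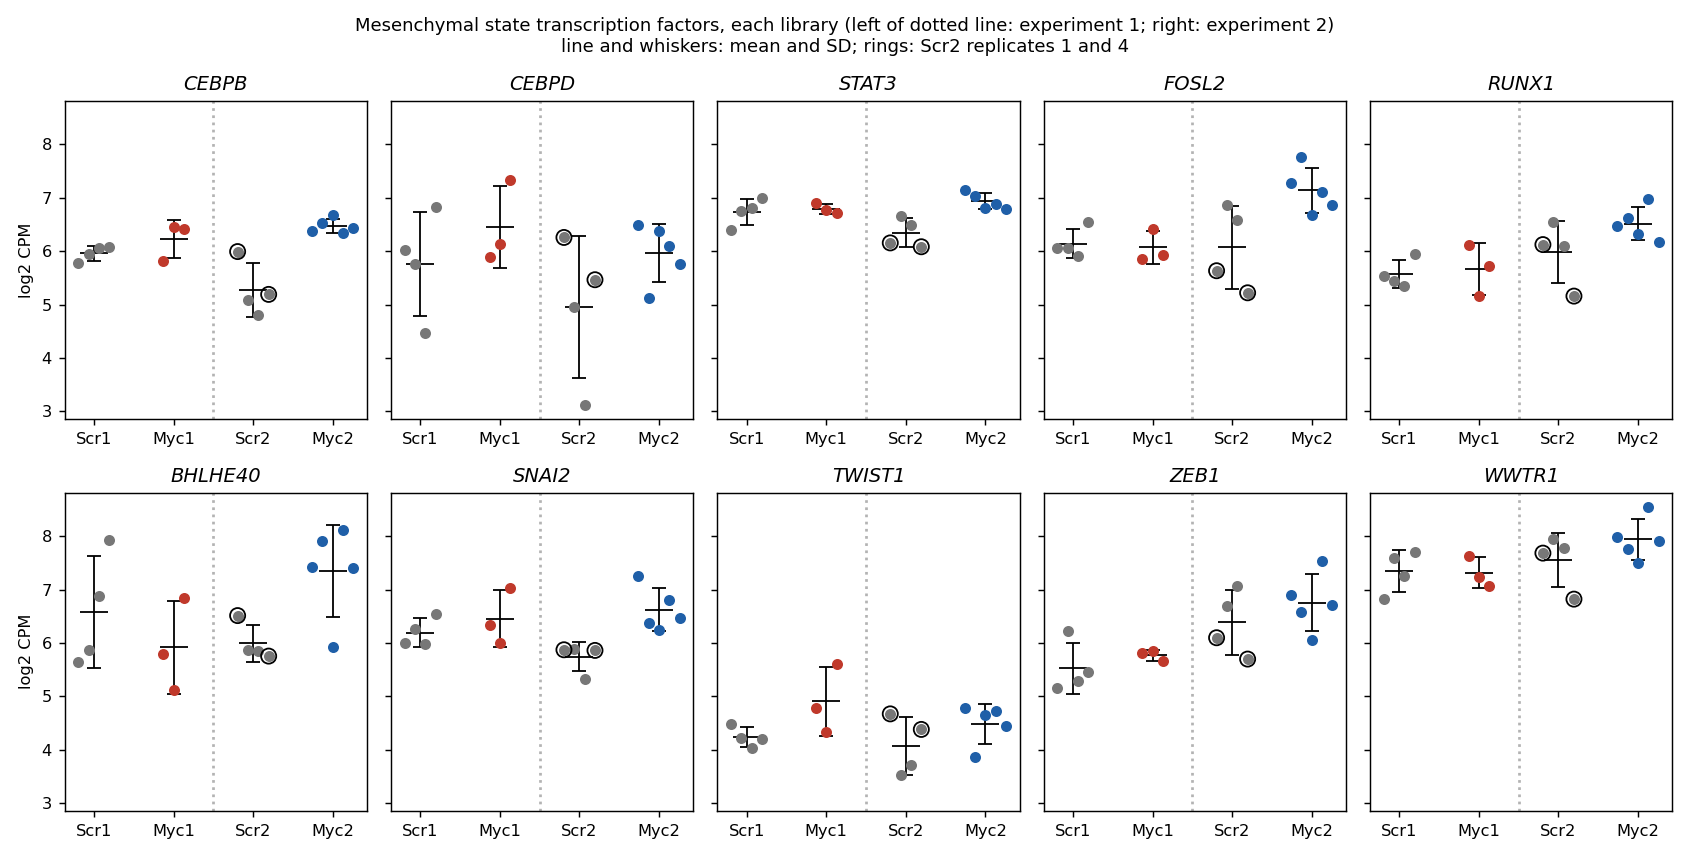
Level of each member in log2 CPM in every library (points), with the mean and SD of each group (line and whiskers); experiment 1 is left of the dotted line, experiment 2 right of it, and rings mark Scr2 replicates 1 and 4. CEBPB, STAT3 and SNAI2 are the members whose 5 Myc2 points all lie above the 4 Scr2 points.

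CEBPB, which encodes a basic leucine zipper factor of the acute-phase response, had the smallest limma p of the members in experiment 2 (4th of 14208 genes). It measured 6.38, 6.54, 6.68, 6.35 and 6.43 log2 CPM in Myc2 and 5.99, 5.08, 4.81 and 5.19 in Scr2. Every Myc2 tumour was above every Scr2 tumour, and the Myc2 values lay close together (SD 0.13) while Scr2 spread more (SD 0.51). The difference was 1.21 ± 0.22 (log2, limma SE), 2.31-fold, with an adjusted limma p of 0.370 and an exact two-sided permutation p of 0.00794, the smallest that 126 arrangements of 5 against 4 can give. In experiment 1 it measured 5.81, 6.46 and 6.41 in Myc1 and 5.78, 5.94, 6.05 and 6.07 in Scr1. Myc1 replicates 2 and 3 were above all controls and replicate 1 was among them, and the difference was 0.26 ± 0.22 (95% interval -0.22 to 0.74), from 0.15 without Myc1 replicate 2 to 0.47 without Myc1 replicate 1. Scr2 replicates 1 and 4 held the 2 highest CEBPB values of the controls, so leaving them out raised the difference in experiment 2. Against Scr2 replicates 2 and 3 alone the difference was 1.53 with an adjusted limma p of 0.0240, and CEBPB was called. In that fit 2 of 14639 genes tested were called.

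CEBPD encodes the delta member of the same family, which is induced early in inflammation. Its level varied far more between tumours of a group than that of CEBPB. In experiment 2 it measured 6.49, 5.13, 6.37, 6.11 and 5.76 log2 CPM in Myc2 and 6.26, 4.96, 3.13 and 5.47 in Scr2. The groups overlapped, Scr2 replicate 3 was the lowest of all 9 tumours, and the difference was 1.02 ± 0.52 (95% interval -0.12 to 2.16). It was 0.41 without Scr2 replicate 3 and 1.93 without Scr2 replicates 1 and 4. Experiment 1 gave 5.90, 6.14 and 7.33 in Myc1 and 6.02, 5.76, 4.47 and 6.82 in Scr1, where the low value of 4.47 was that of the shallow library, Scr1 replicate 3. The groups overlapped, with a difference of 0.69 ± 0.55, which was 0.26 without Scr1 replicate 3 and 0.25 without Myc1 replicate 3. With Scr1 replicate 4 left out it was 1.04. The within-group SD of CEBPD (0.90 in experiment 1, 0.96 in experiment 2) was above that of 94.0% of the genes tested in each experiment.

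STAT3, the effector of IL6-family receptors and JAK kinases, varied little between tumours of a group. Its levels in experiment 2 were 7.15, 7.03, 6.81, 6.89 and 6.80 log2 CPM in Myc2 and 6.16, 6.65, 6.49 and 6.08 in Scr2. The groups did not overlap, although the gap between the lowest Myc2 and the highest Scr2 tumour was small. The difference was 0.59 ± 0.17, 1.50-fold (adjusted limma p 0.370, exact permutation p 0.00794), and 0.36 without Scr2 replicates 1 and 4, the 2 lowest controls. In experiment 1 STAT3 measured 6.90, 6.77 and 6.71 in Myc1 and 6.40, 6.75, 6.81 and 6.99 in Scr1. All Myc1 values lay inside the range of Scr1, and the difference was 0.05 ± 0.21 (95% interval -0.39 to 0.50).

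FOSL2 encodes a FOS-family subunit of AP-1. It measured 7.27, 7.77, 6.68, 7.11 and 6.87 log2 CPM in Myc2 and 5.63, 6.87, 6.58 and 5.22 in Scr2. Scr2 replicate 2 was level with the lower Myc2 tumours, so the groups overlapped, and Scr2 replicates 1 and 4 were lowest. The difference was 1.07 ± 0.34, 2.09-fold (adjusted limma p 0.370, exact permutation p 0.0238), and 0.42 without Scr2 replicates 1 and 4. The Myc1 values of 5.86, 6.42 and 5.94 overlapped the Scr1 values of 6.05, 6.07, 5.91 and 6.55, with a difference of -0.07 ± 0.23 (95% interval -0.57 to 0.43).

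RUNX1, a Runt-domain factor that pairs with CBFB, was at 6.46, 6.62, 6.32, 6.98 and 6.18 log2 CPM in Myc2 and 6.12, 6.54, 6.10 and 5.16 in Scr2. Only Scr2 replicate 4 lay well below the Myc2 range. The difference was 0.53 ± 0.27 (95% interval -0.05 to 1.11), 0.26 without Scr2 replicate 4 and 0.19 without replicates 1 and 4. In experiment 1 the levels were 6.12, 5.16 and 5.73 in Myc1 and 5.54, 5.45, 5.35 and 5.94 in Scr1. All Scr1 values lay inside the Myc1 range, with a difference of 0.10 ± 0.26, from -0.12 without Myc1 replicate 1 to 0.36 without Myc1 replicate 2.

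BHLHE40 had the largest difference of the members in experiment 2 and was the member with the lowest value for siRNA 1. It measured 7.42, 7.90, 5.92, 8.11 and 7.40 log2 CPM in Myc2 and 6.51, 5.87, 5.84 and 5.75 in Scr2. Of the 5 Myc2 tumours, 4 were above every control, and Myc2 replicate 3 was among the controls. The difference was 1.36 ± 0.38, 2.56-fold (adjusted limma p 0.370, exact permutation p 0.0238). It was 1.71 without Myc2 replicate 3, the lowest Myc2 value, where BHLHE40 was called (adjusted limma p 0.0413). In that fit 9 of 14101 genes tested were called. Without Scr2 replicates 1 and 4 the difference was 1.50, and BHLHE40 was not called. In experiment 1 it measured 5.79, 5.13 and 6.85 in Myc1 and 5.65, 5.87, 6.88 and 7.93 in Scr1. These groups overlapped, Scr1 replicate 4 was the highest, and the difference of -0.66 ± 0.63 (95% interval -2.13 to 0.81) was -0.21 without that library and -1.13 without Myc1 replicate 3.

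SNAI2 encodes Slug, a zinc finger repressor of epithelial genes. Its levels were 7.25, 6.37, 6.24, 6.80 and 6.48 log2 CPM in Myc2 and 5.87, 5.89, 5.33 and 5.86 in Scr2. The groups did not overlap, and 3 of the 4 controls were nearly equal. The difference was 0.89 ± 0.22, 1.85-fold (adjusted limma p 0.370, exact permutation p 0.00794), and 1.02 without Scr2 replicates 1 and 4. In experiment 1 SNAI2 measured 6.34, 6.0 and 7.04 in Myc1 and 5.99, 6.26, 5.98 and 6.54 in Scr1. Only Myc1 replicate 3 was above the controls, and the difference of 0.26 ± 0.26 was -0.02 without it and 0.49 without Myc1 replicate 2.

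TWIST1, a basic helix-loop-helix factor of mesoderm and neural crest, was the member with the lowest CPM in all 4 groups. It was the 1 member with an unadjusted limma p under 0.05 in experiment 1, where it measured 4.78, 4.34 and 5.61 log2 CPM in Myc1 and 4.48, 4.22, 4.04 and 4.20 in Scr1. Myc1 replicates 1 and 3 were above all controls and replicate 2 was below Scr1 replicate 1. The difference was 0.67 ± 0.30, 1.60-fold (limma p 0.0408, adjusted 0.996, exact permutation p 0.0571, where 0.0286 is the smallest that 35 arrangements can give), and it was 0.33 without Myc1 replicate 3. The value in Scr1 replicate 3 rests on an estimated 54.9 reads, the fewest behind any member value. In experiment 2 TWIST1 measured 4.79, 3.86, 4.64, 4.72 and 4.44 in Myc2 and 4.67, 3.52, 3.72 and 4.38 in Scr2, which overlapped. There the difference was 0.42 ± 0.28 (95% interval -0.19 to 1.03), 0.24 without Scr2 replicate 2, and 0.87 without Scr2 replicates 1 and 4, the 2 higher controls.

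ZEB1, a zinc finger homeobox factor that represses epithelial genes, was at 6.89, 6.59, 6.06, 7.53 and 6.71 log2 CPM in Myc2 and 6.10, 6.70, 7.06 and 5.70 in Scr2. The groups overlapped over most of their range. The difference was 0.37 ± 0.32 (95% interval -0.34 to 1.07), 0.14 when Scr2 replicate 4 was left out, 0.59 when Scr2 replicate 3 was, and -0.12 without Scr2 replicates 1 and 4. In experiment 1 the Myc1 values of 5.81, 5.85 and 5.65 were close together inside the Scr1 range of 5.15, 6.22, 5.28 and 5.46, with a difference of 0.24 ± 0.26, from 0.12 without Scr1 replicate 1 to 0.47 without Scr1 replicate 2. The antisense gene ZEB1-AS1 was at 1.60 to 3.25 log2 CPM, and the sources used here do not give the strand setting of the counting.

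WWTR1 had the highest CPM of the members in all 4 groups. It measured 7.99, 7.76, 7.51, 8.55 and 7.92 log2 CPM in Myc2 and 7.68, 7.94, 7.79 and 6.82 in Scr2. Scr2 replicate 4 alone lay below the Myc2 range. The difference was 0.39 ± 0.26 (95% interval -0.19 to 0.96), 0.14 without Scr2 replicate 4 and 0.08 without replicates 1 and 4. In experiment 1 it measured 7.64, 7.23 and 7.08 in Myc1 and 6.83, 7.59, 7.25 and 7.71 in Scr1, which overlapped, with a difference of -0.03 ± 0.24.

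**Figure D2:**
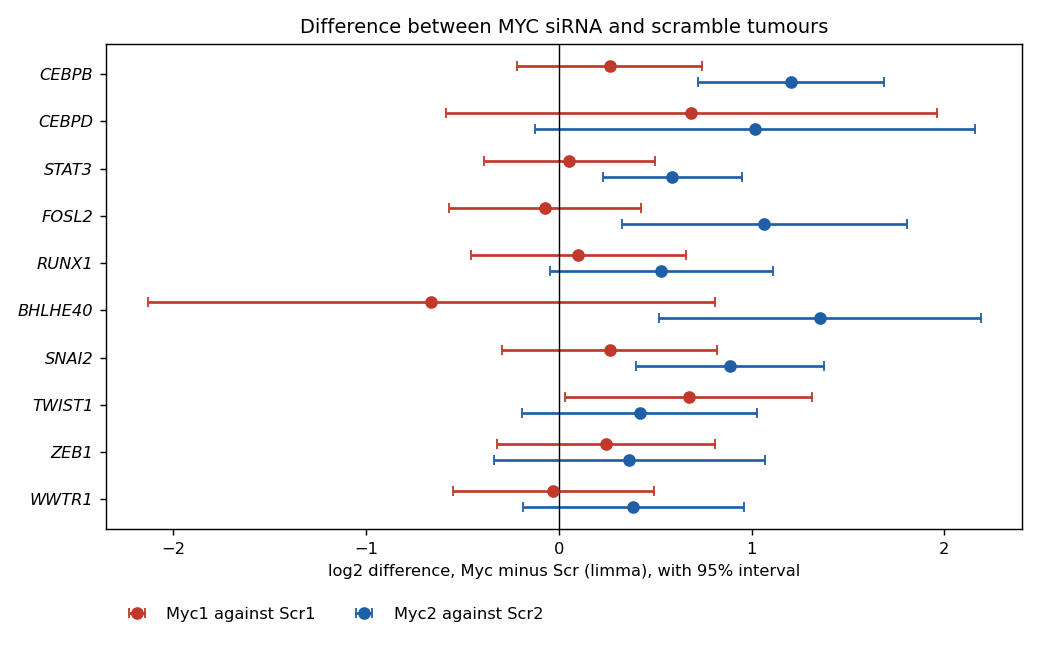
Difference between the MYC siRNA and the scramble group of each experiment on the log2 scale (points), with limma's 95% interval (bars), for siRNA 1 and siRNA 2. The intervals of CEBPB, STAT3, FOSL2, BHLHE40 and SNAI2 for siRNA 2 and of TWIST1 for siRNA 1 lie above 0, and no adjusted p was under 0.05.

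The members split by how they depended on Scr2 replicates 1 and 4. Over the 9 libraries of experiment 2, Pearson's r with the first principal component was 0.96 for FOSL2, 0.90 for STAT3, 0.86 for RUNX1, 0.71 for WWTR1 and 0.67 for ZEB1. It was 0.49 for BHLHE40, 0.43 for SNAI2, 0.40 for CEBPB, -0.06 for CEBPD and -0.24 for TWIST1. Leaving both libraries out lowered the difference of the first 5 and raised that of the other 5. This is a description over libraries that also enter the component, and what sets those 2 libraries apart was not tested.

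**Figure D3:**
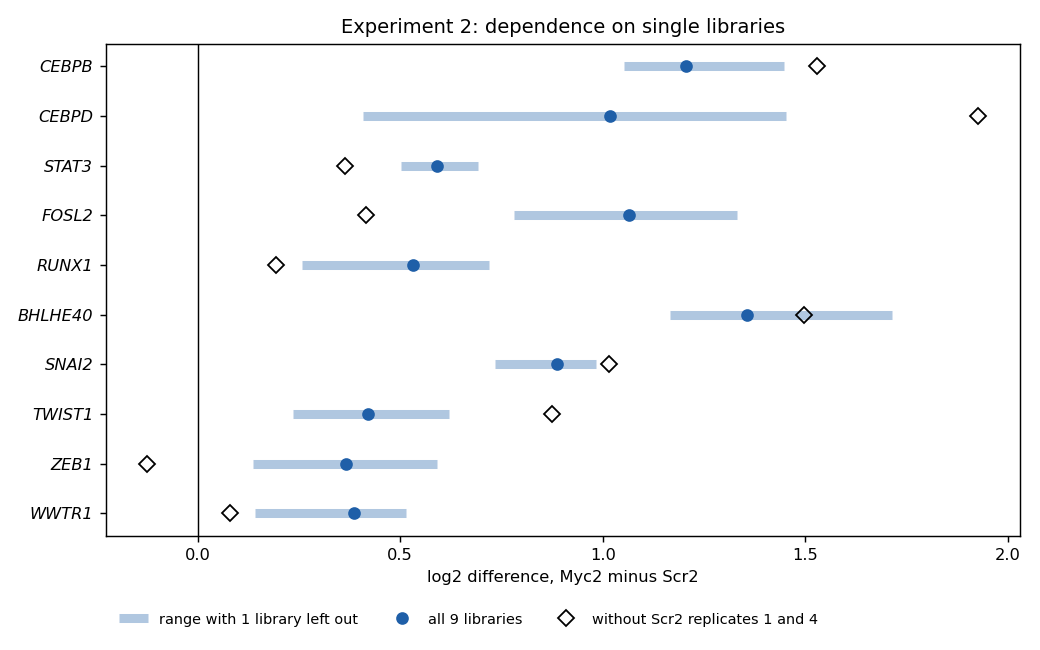
Difference Myc2 minus Scr2 (log2) of each member with all 9 libraries (circles), the range with 1 library left out at a time (bars), and the value without Scr2 replicates 1 and 4 (diamonds). CEBPB, CEBPD, BHLHE40, SNAI2 and TWIST1 have the diamond to the right of the circle, and ZEB1 is at -0.12.

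The differences for siRNA 1 and siRNA 2 were then set against each other in 1 fit over the 4 groups. Of 14891 genes, 0 were called for the difference of the 2 effects (0%) and 8.74% had an unadjusted limma p under 0.05, 4.58% with the lower value for siRNA 1. The effect was lower for siRNA 1 in 9 of 10 members (48.7% of all genes), 4 of them (CEBPB, STAT3, FOSL2 and BHLHE40) with an unadjusted limma p under 0.05 and an adjusted p of 0.532. BHLHE40 differed by -2.02 ± 0.72 (siRNA 1 minus siRNA 2, exact permutation p 0.0333 over 4410 arrangements), with a lower mean than its control in experiment 1 and a higher one in experiment 2. FOSL2 differed by -1.14 ± 0.45 (exact permutation p 0.0376), CEBPB by -0.94 ± 0.32 (0.0714) and STAT3 by -0.53 ± 0.25 (0.0576). TWIST1 was the exception, with 0.25 ± 0.42. The permutation moved labels within each experiment, so its null is no effect in either experiment. A small permutation p can come from 1 experiment alone and does not test whether the effects are equal. Without Scr2 replicates 1 and 4 the difference of the effects was -0.49 for FOSL2 and -0.31 for STAT3, against -2.16 for BHLHE40 and -1.27 for CEBPB. The siRNA sequence and the experiment changed together, so their parts cannot be told apart.

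For the mean of both effects, 0 of 14891 genes were called (0%) and 7.93% had an unadjusted limma p under 0.05 (4.04% higher). All 10 members had a mean above 0 (47.5% of all genes did), with an unadjusted p under 0.05 for 5. CEBPB had 0.73 ± 0.16 (adjusted limma p 0.322, exact permutation p 0.000907), SNAI2 0.58 ± 0.18, TWIST1 0.55 ± 0.21, FOSL2 0.50 ± 0.22 and STAT3 0.32 ± 0.12. The mean for BHLHE40 was 0.35 ± 0.36, as its 2 effects had opposite signs. Without Scr2 replicates 1 and 4 the mean was 0.17 for FOSL2 and 0.21 for STAT3, while it was 0.90 for CEBPB, 0.64 for SNAI2 and 0.77 for TWIST1.

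To order the members, levels were divided by exon length (GENCODE v29). CEBPB stood at or near the top on this scale: 45.4 CPM per kb in Myc2 (geometric mean), 38.2 in Myc1, 31.8 in Scr1 and 19.7 in Scr2. In Myc2 it was followed by BHLHE40 (42.5), WWTR1 (29.3), SNAI2 (29.1) and CEBPD (28.8), and the ranges over tumours of neighbours in this order overlapped, while those of CEBPB and CEBPD did not. FOSL2 (19.7), STAT3 (13.9), ZEB1 (12.5) and TWIST1 (11.1) came next, again with overlap between neighbours. In Scr2 the order began with WWTR1 (22.4), CEBPB (19.7), BHLHE40 (16.6), SNAI2 (15.7) and CEBPD (14.2). Experiment 1 was led by CEBPD (40.3) and CEBPB in Myc1, and by CEBPB, CEBPD (25) and BHLHE40 (25) in Scr1, whose ranges overlapped. RUNX1, with 15.6 kb of annotated exon, was lowest in every group, at 3.05 to 5.86 CPM per kb.

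Covariation of the members between tumours of 1 group was also described. The share of other gene pairs with r above 0 was not computed. The counts below therefore do not show that members vary together more than other genes do. With the mean of each group subtracted, Pearson's r between 2 members over the 16 tumours was above 0 in 30 of 45 pairs, with the same sign above 0 in both experiments for 23 pairs and below 0 in both for 8. CEBPB, CEBPD, SNAI2 and TWIST1 had r above 0 in 6 of 6 pairs (median 0.58; 5 of 6 in experiment 1), and STAT3, FOSL2, RUNX1, ZEB1 and WWTR1 in 10 of 10 (median 0.54; 8 of 10 in experiment 1). In the first set CEBPB was held weakly: without the 2 farthest tumours its r was -0.13 with SNAI2 and -0.01 with TWIST1, and its rho with SNAI2 was -0.06 over all 16. Between these sets, which were drawn after the values were seen, 5 of 20 pairs were above 0 (median -0.23): 4 of 20 in experiment 2 and 12 of 20 in experiment 1, so the 2 experiments did not show it alike, a difference that was not tested. BHLHE40 had r above 0 with all 9 others over the 16 tumours, but with 8 of 9 in experiment 1 and 7 of 9 in experiment 2.

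Single pairs show the range. ZEB1 with WWTR1 gave r = 0.81 (Spearman's rho 0.79), with 0.59 in experiment 1, 0.89 in experiment 2 and 0.76 without the 2 tumours farthest from the median. CEBPD with TWIST1 gave 0.70 (rho 0.81; 0.59 and 0.77; 0.76 without the 2 farthest). FOSL2 with TWIST1 gave -0.69 (rho -0.59; -0.41 and -0.82; -0.64). CEBPB with CEBPD gave 0.57 (rho 0.39), but 0.14 without the 2 farthest, so it rested on those tumours. MYC itself went with WWTR1 (r = 0.65; 0.76 and 0.78 in the 2 experiments) and STAT3 (0.65; 0.90 and 0.44). All these values share libraries, depth and normalisation and are descriptions.

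**Figure D4:**
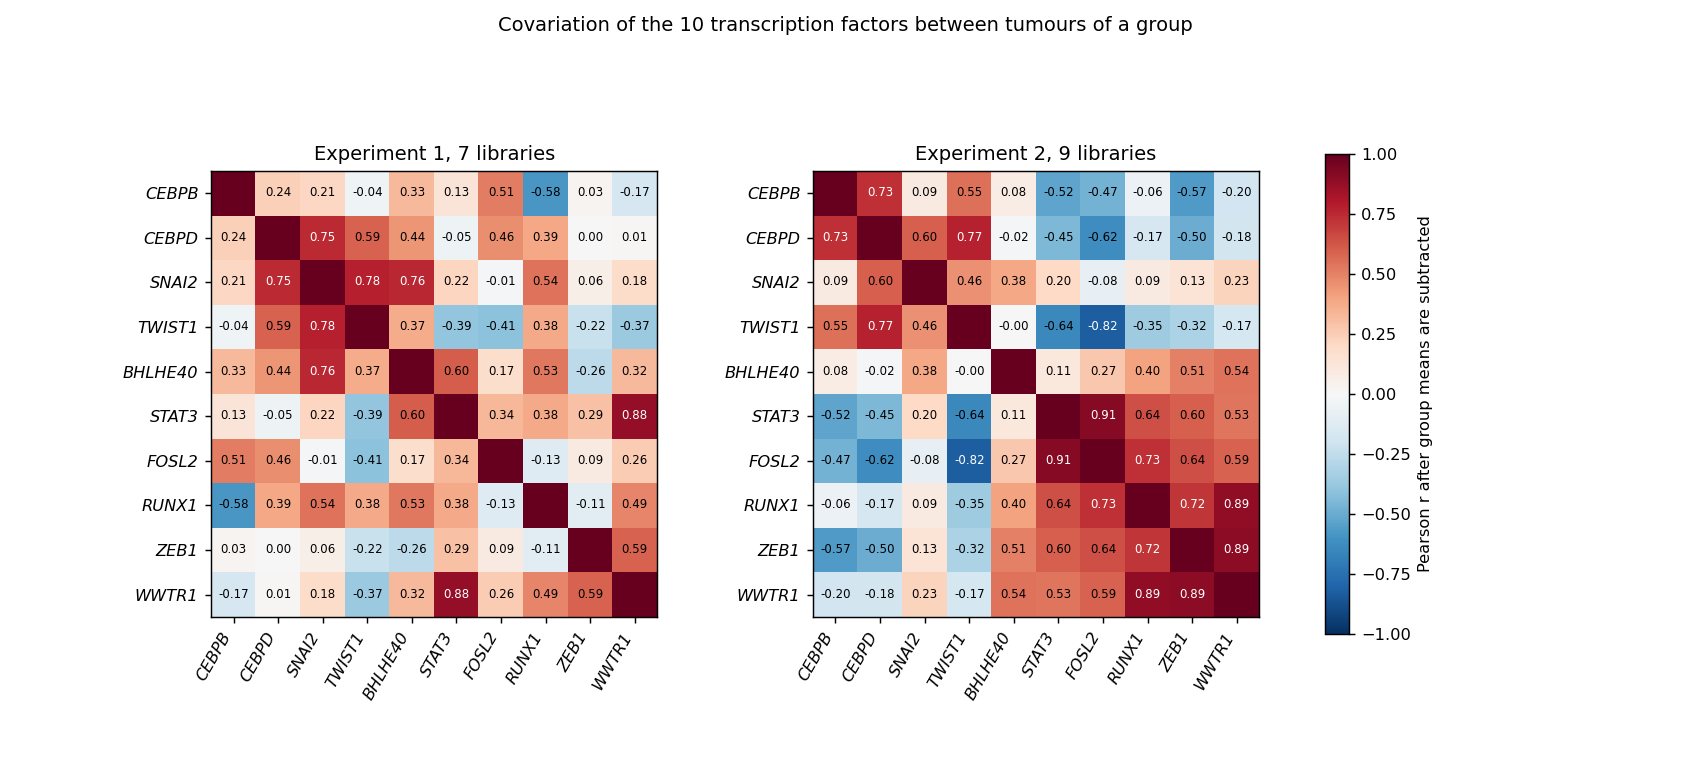
Pearson's r between members across the 7 tumours of experiment 1 (left) and the 9 of experiment 2 (right) after the group means are subtracted; red is above 0 and blue below. The block of STAT3, FOSL2, RUNX1, ZEB1 and WWTR1 is red throughout in experiment 2, and its r with CEBPB, CEBPD and TWIST1 is blue there.

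The genes around the members were read from lists, each described by counts. The lists share genes, among them OSMR, LIF, BCL3, VEGFA, TGFBI, JUNB and LATS2, so their counts are not separate observations. Over all genes tested in experiment 2 the median was -0.02, 48.2% were above 0, and 7% were higher and 6.36% lower at an unadjusted limma p under 0.05. In experiment 1 these were -0.0028, 49.5%, 1.96% and 1.52%. No gene of any list was called by limma, so the genes named are those with the smallest unadjusted p. Upstream of STAT3, 12 of 15 measured ligands, receptors and kinases of the IL6 family were above 0 in experiment 2 (median 0.44), 5 of them with an unadjusted p under 0.05. OSMR, a receptor subunit for oncostatin M, had 6.17 ± 0.37 in Myc2 (SD, n = 5) and 5.16 ± 0.33 in Scr2 (n = 4), a difference of 1.01 ± 0.22. LIF, a cytokine that acts through STAT3, had 0.91 ± 0.34 and IL6ST, the shared receptor chain, 0.67 ± 0.29. In experiment 1, 8 of 15 were above 0 (median 0.01), led by IL11RA with 0.67 ± 0.26.

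The list of STAT3 targets and feedback genes, which also holds the inhibitor PIAS3, was above 0 in 12 of 15 cases in experiment 2 (median 0.47; 6 higher and 1 lower at an unadjusted p under 0.05). BCL3, an NF-kB cofactor, had 1.27 ± 0.23 and VEGFA, the angiogenic factor that is also a hypoxia target, 2.80 ± 0.61, while BIRC5 (survivin) had -0.68 ± 0.20. In experiment 1 the count was 7 of 15 (median -0.02). Acute-phase and inflammatory targets of C/EBP factors had the highest medians of the target lists, with 6 of 8 above 0 in experiment 2 (median 1.10) and 7 of 8 in experiment 1 (median 0.89), but only 8 of the 18 listed genes were tested in each experiment. CRP, HP, LCN2, ORM1, ORM2 and SAA2 were not analysed here in either, CCL2 and IL1B were below the filter in both, and CP and SAA1 entered neither test. Complement C3 had 3.00 ± 1.30 in experiment 2 and 3.01 ± 0.56 in experiment 1. PTGS2 (cyclooxygenase) had 2.01 ± 0.66 in experiment 2 and SERPINA3, an acute-phase protease inhibitor, 1.63 ± 0.54 in experiment 1.

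Beside the epithelial-mesenchymal factors, 9 of 10 measured targets were above 0 in experiment 2 (median 0.24) and 6 of 10 in experiment 1 (median 0.04). The list mixes epithelial genes, which these factors repress, with mesenchymal genes, so a count above 0 has no single meaning. TJP1, an epithelial gene, had -0.70 ± 0.24 in experiment 1, the 1 gene of the list with an unadjusted limma p under 0.05 there. LOXL2, a matrix cross-linking enzyme, had 1.00 ± 0.35 and TGFBI, a matrix protein, 1.05 ± 0.40 in experiment 2, whereas S100A4 had -0.98 ± 0.44. CDH1, CDH11, CRB3, DSP and ESRP1 of this list were not analysed here, and CLDN1, EPCAM and OCLN were below the filter of 1 CPM. Beside WWTR1, 15 of 22 YAP/TAZ targets were above 0 in experiment 2 (median 0.31), led by F3 (tissue factor, 1.95 ± 0.52) and CYR61 (0.78 ± 0.29). In experiment 1, 6 of 22 were (median -0.23), with AJUBA at -0.85 ± 0.33 and TGFB2 at 1.00 ± 0.43. The Hippo kinases and adaptors had 10 of 13 above 0 in experiment 2 and 5 of 13 in experiment 1.

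Among paralogues and dimer partners of the members, 22 of 26 were above 0 in experiment 2 (median 0.27) and 8 of 27 in experiment 1 (median -0.13). The AP-1 partners of FOSL2 had 0.84 ± 0.23 (JUN) and 0.50 ± 0.16 (JUNB) in experiment 2, and STAT2 had 1.21 ± 0.41. Of 21 other transcription factors linked to the state, 16 were above 0 in experiment 2 and 8 in experiment 1. NFIL3 had 1.51 ± 0.35 and EPAS1, which encodes the hypoxia-inducible factor HIF-2 alpha, 1.20 ± 0.27 in experiment 2. The structural and surface genes of the state were above 0 in 20 of 26 cases in experiment 2 (10 higher and 1 lower at an unadjusted p under 0.05) and 17 of 26 in experiment 1. CHI3L1, a secreted mesenchymal marker, had 2.61 ± 0.54 and 2.00 ± 0.69 in experiments 2 and 1, while LGALS1 (galectin-1) had -0.82 ± 0.21 in experiment 2. Few proneural factors were tested, 5 of 18 in each experiment, with 3 and 2 above 0 in experiments 2 and 1, and SOX4 at 1.26 ± 0.40 in experiment 1.

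Of the hypoxia genes, 15 of 15 were above 0 in experiment 2 (median 1.00; 48.2% of all genes were above 0) and 9 were higher at an unadjusted limma p under 0.05 (7% of all genes), none of them called, DDIT4 at 1.42 ± 0.29 and KDM3A at 1.07 ± 0.26 among them. In experiment 1, 11 of 15 were above 0 (median 0.27). Of the 7 astrocyte markers 5 were in each table, and their summed level was 204 to 841 CPM in Myc2 and 169 to 488 in Scr2, carried by GJA1 and SLC1A3, with AQP4 and S100B not analysed here. In experiment 1 the sum was 324 to 402 CPM in Myc1 and 143 to 401 in Scr1. The pericyte marker NOTCH3 was at 14.4 to 42.9 CPM in Myc2 and 4.82 to 12.1 in Scr2, which did not overlap (difference 1.58 ± 0.37). Of the tested pericyte markers 4 of 5 were above 0, and RGS5 was lower (-0.40 ± 0.31). The summed pericyte level overlapped, at 210 to 415 CPM in Myc2 and 153 to 279 in Scr2. In experiment 1 NOTCH3 overlapped, at 27.0 to 48.3 CPM in Myc1 and 15.4 to 53.9 in Scr1. The pericyte sum there was 227 to 321 CPM in Myc1 and 209 to 376 in Scr1. Of 5 endothelial markers present in experiment 2, 4 were tested and were above 0. CDH5 was at 0.71 to 6.49 CPM in Myc2 and 0.12 to 2.55 in Scr2 (2.28 ± 0.91). ESAM was below the filter, at 0.62 to 0.99 CPM in Myc2 and 0.51 to 1.33 in Scr2. These genes lay near the filter of 1 CPM, so which of them were tested depended on the same levels, and the count is not support for a difference. The summed endothelial level was 4.72 to 13.7 CPM in Myc2 and 4.26 to 6.74 in Scr2. In experiment 1 that sum was 2.64 to 3.58 CPM in Myc1 and 2.83 to 4.48 in Scr1. These are rows of human genes and do not measure the mouse host tissue. The part of oxygen supply, of other cell types and of the libraries that stood apart in the members' differences was not tested.

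**Figure D5:**
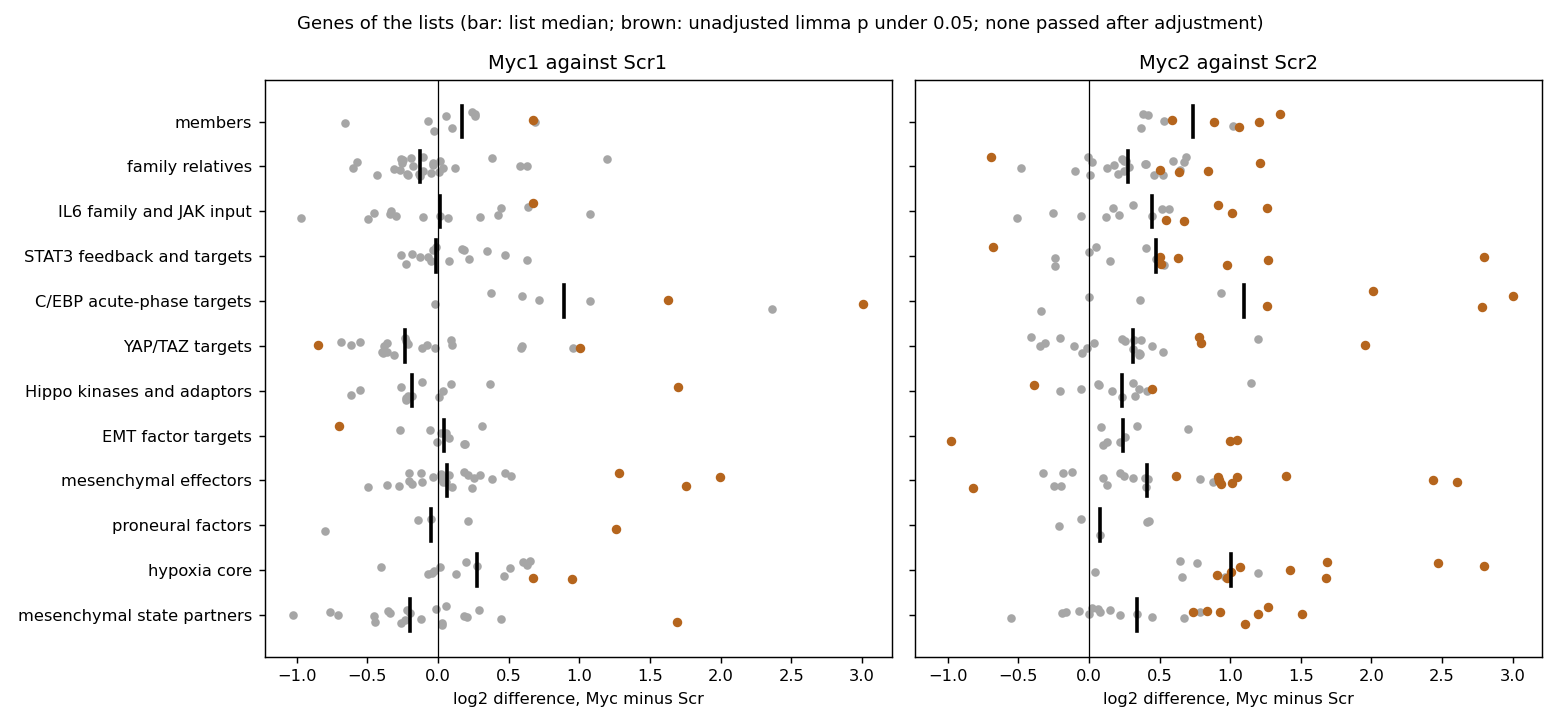
Difference Myc minus Scr (log2) of each measured gene (points) by list for siRNA 1 (left) and siRNA 2 (right), with the list median (bar) and genes with an unadjusted limma p under 0.05 in brown. For siRNA 2 the hypoxia genes and the 10 members lie wholly above 0, with medians of 1.00 and 0.74.

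For each member, the genes whose level followed it most closely across the 16 tumours, with group means subtracted, were taken from 13656 genes. BHLHE40 was followed most closely by MAFF (r = 0.90), a small MAF factor of the partner list, and FLJ27365 (0.89). FOSL2 went with PLXNA3 (0.95) and SIN3B (0.95), ZEB1 with IPO9 (0.95) and ATP13A3 (0.94), and TWIST1 with AMZ2P1 (0.94) and PRELID2 (0.92). WWTR1 went with TET1 (0.91) and SPRED2 (0.89), RUNX1 with CTD-2047H16.4 (0.91) and BNC2 (0.89), and CEBPB with BTG1 (0.89) and FTH1 (0.81). CEBPD went with RP11-307C12.12 (0.88) and TSC22D3 (0.87), a gene known for its induction by glucocorticoids. STAT3 went with BX322557.10 (0.87) and SKIV2L (0.87), and SNAI2 with MIR210HG (0.83), the host transcript of a hypoxia-induced miRNA, and RGS2 (0.79). Each of these is the highest of many values of r and is given as a description.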

How the data were processed

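Per the submitters' processing notes, bcl2fastq 2.20.0, STAR 2.6.0b and Picard were used, with builds hg19 and mm10. Neither the counting tool, its strand setting and annotation nor the handling of mouse reads is given in the sources used here. For each experiment the authors deposited a table of log2 values for human Ensembl genes. That unit follows from the values: taken back from log2 they summed to 995054 to 998392 in every library. Their sorted values coincided within a table apart from ties at the low end, where 0.78% to 8.81% of genes were at a library's lowest value. They were therefore read as quantile-normalised log2 CPM, in which a change of total RNA cannot be seen. Depth was estimated from the spacing of the lowest values, taken as log2(count + 0.5). Quantile normalisation can move these values, so the depths and read numbers are approximate.

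Each comparison was fitted on all genes with limma 3.58.1 in R 4.3.3 (trend and robust settings), for genes with at least 1 CPM in 3 (experiment 1, joint fit) or 4 libraries (experiment 2), with Benjamini-Hochberg adjustment over all genes and a threshold of 0.05. The fit was tested on simulated data. An exact two-sided permutation over mice was run for each member. Alternatives were other filters, pseudocounts of 0.1 and 1, array weights, a median shift, a spread shared by 4 groups, no trend or robust setting, and libraries left out. The members, lists and tests were chosen with earlier results of these data known. All 10 members were named; from each list the 3 genes with the smallest unadjusted p in a comparison could be named, and 2 genes per member for likeness. Promoters came from RefSeq (GRCh38.p14), taking the start nearest the annotated gene start; exon lengths came from GENCODE v29, and no coordinates were moved between builds.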

Additional observations from a re-analysis of the deposited data

Results flagged for a closer look

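In 2 of the 30 groups of 4 or 5 tumours examined, 1 tumour lay apart from the others of its group by Dixon's test at the 95% level, where chance gives about 1 in 20. BHLHE40 in Scr2 replicate 1 was at 6.51 log2 CPM against 5.75 to 5.87 in the other 3 controls. SNAI2 in Scr2 replicate 3 was at 5.33 against 5.86 to 5.89. The BHLHE40 value was above that of 1 Myc2 tumour (5.92, replicate 3), and the SNAI2 value was below all 5 Myc2 tumours.

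For 2 members the difference of the 2 effects had an exact permutation p under 0.05: FOSL2 at -1.14 (p = 0.0376) and BHLHE40 at -2.02 (p = 0.0333). The labels were moved within experiments, so the null is no effect in either, and equality of the effects was not tested. These 2 permutation p-values are of single genes among 10, and limma's adjusted p over all genes was 0.532 for each. Without Scr2 replicates 1 and 4 the values were -0.49 for FOSL2 and -2.16 for BHLHE40.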

How the results depend on the processing

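No paired analysis was possible because the labels give no replicate numbers, and the numbers used here follow accession order. Groups held 3 to 5 mice, and Scr1 replicate 3 was at 3.35 M reads. The smallest difference detectable at this size and depth was not computed. A 95% interval that includes 0 is therefore not evidence of no difference, and one that excludes 0 is not a called change.

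Over all results and settings, 891 alternative values kept direction and side of the threshold, 21 reversed, 10 counts moved and 2 members became called. Genes called for siRNA 1 were 0, with 1 at a filter of 5 CPM and 0 to 2 with 1 library left out. For siRNA 2 they were 0, with 2 without Scr2 replicates 1 and 4 and 0 to 9 with 1 library left out (9 without Myc2 replicate 3). Members called for siRNA 2 were 0, 1 (CEBPB) without Scr2 replicates 1 and 4, and 0 to 1 with 1 library left out (BHLHE40, without Myc2 replicate 3). The cause was not tested.

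The reversals were among small differences. For siRNA 1, WWTR1 was 0.053 with array weights and -0.20 to 0.092 with 1 library left out, FOSL2 -0.25 to 0.062, RUNX1 -0.12 to 0.36, SNAI2 -0.025 to 0.49 and STAT3 -0.056 to 0.14. For siRNA 2, ZEB1 was -0.12 without Scr2 replicates 1 and 4. For the difference of the effects, array weights gave -0.066 for TWIST1 and 0.038 for ZEB1, and leaving out both Scr2 libraries gave -0.20 and 0.37. With 1 library left out TWIST1 ran from -0.094 to 0.54, ZEB1 from -0.35 to 0.11 and CEBPD from -0.77 to 0.28.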
